A study of Mus musculus with 12 samples.

Results

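Zfp652 and Zmym1 are genes for zinc finger proteins, and each has a long non-coding RNA (lncRNA) on the opposite strand, Zfp652os beside Zfp652 and Gm12940 beside Zmym1. The 4 transcripts are described here through 4 probes of the 60641 probes of a mouse lncRNA/mRNA expression array. The study picked both pairs because their members differed between siOCT4-DMSO and siNT-DMSO, so the values of that comparison are given as a description, with no test. In the OCT4-depleted cells without the oxidized lipid, Zfp652os and Zfp652 were both higher, whereas Gm12940 was lower and Zmym1 higher. The 6 arrays of POVPC-treated cells took no part in that choice, and siOCT4-POVPC vs. siNT-POVPC is the comparison tested below. Its spread was estimated over all 12 arrays, those of the choice included. The 4 probes were also taken up here with earlier results of these data known.

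Smooth muscle cells taken directly from mouse aorta (MASMC) were transfected in serum-free medium for 48 h with siRNA against Oct4 (siOCT4) or with a pool of non-target siRNA (siNT). They then received POVPC, an oxidized phospholipid of the kind found in oxidized low-density lipoprotein, at 10 µg/mL, or its vehicle DMSO, for 24 h. This gave 4 groups of 3 arrays: the controls siNT-DMSO, the lipid-treated controls siNT-POVPC, the depleted cells siOCT4-DMSO, and siOCT4-POVPC, which were both depleted and treated. The labels do not say that replicates came from separate cultures, so p-values measure only the spread between these samples, which may be technical. Transfection and serum-free medium were shared by all 4 groups, and an untransfected group was not analysed here. OCT4 itself, encoded by Pou5f1, could not be checked, because no probe could be given that name.

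C2H2 zinc finger proteins bind DNA through repeated fingers, and many act as transcriptional repressors. Zfp652 is the mouse form of ZNF652, a repressor that works with the ETO-family corepressor CBFA2T3. Zmym1 carries MYM-type zinc fingers, a class that is used more for protein contacts than for DNA contact, and relatives such as ZMYM2 sit in complexes with the histone demethylase LSD1, CoREST and histone deacetylases. An antisense lncRNA can share a promoter region with its partner, can overlap the partner's 3′ end, or can act away from its own locus, and position alone does not tell which. In vascular biology OCT4 is known as a pluripotency factor that smooth muscle cells switch on again in atherosclerotic plaques.

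The pairs differ in their layout. Zfp652os (ENSMUST00000155531, probe ASMM10LNC1A100068455V4) lies on the minus strand at chr11:95700106-95712754, and the Zfp652 transcript of the array (ENSMUST00000107717, probe ASMM10AP1B118719068V4) on the plus strand at chr11:95712673-95772353. They share 82 bases, which hold both 5′ ends, and their starts are 81 bases apart. Gm12940 (ENSMUST00000137236, probe ASMM10LNC1A100004643V4) lies on the plus strand at chr4:127035681-127049398, and Zmym1 (ENSMUST00000106102, probe ASMM10AP1B125662509V4) on the minus strand at chr4:127047094-127061152. These share 2305 bases, which hold both 3′ ends. The first pair thus runs head to head and the second tail to tail. Coordinates are those of the study's tables. The span of Zfp652os is the same in RefSeq's GRCm38.p6 gene table, although the scanner headers name mm9.

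The RefSeq table differs from the array's annotation at both loci. It places the Zfp652 gene at chr11:95749067-95764715, which leaves 36313 bases between it and Zfp652os, with B130006D01Rik between them. It lists Gm12940 as a synonym of Sfpq, the gene of a splicing factor found in paraspeckles, whose span at chr4:127020716-127051101 contains all of the Gm12940 transcript. The Gm12940 probe is therefore reported as uncertain: whether its signal came from Gm12940 or from Sfpq RNA cannot be told from these files.

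**Figure D1:**
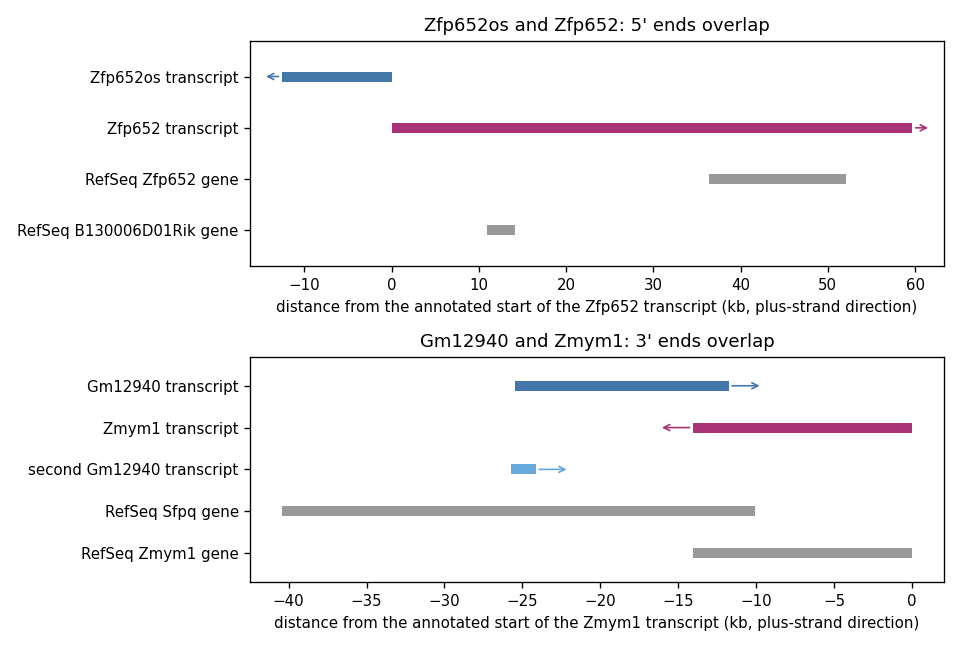
Transcripts and RefSeq genes of both loci, drawn to scale as distance in kb from the annotated start of the mRNA transcript; arrows show the strand, and RefSeq genes are drawn without one. Zfp652os and Zfp652 meet at their starts over 82 bases, and Gm12940 and Zmym1 overlap by 2305 bases at their ends.

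A second probe, ASMM10LNC1A100015461V4, carries the name Gm12940. It reads another transcript (ENSMUST00000130659) at chr4:127035450-127037013, which starts before the first transcript and ends before the stretch shared with Zmym1. That transcript too lies within the span of Sfpq, so the source of the second probe's signal is uncertain as well. The probe's 60-base sequence is shown because it and the first probe gave different answers under the name Gm12940.
Gm12940, second probe: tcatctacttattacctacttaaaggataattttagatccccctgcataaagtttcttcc

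Signals below are background-subtracted processed intensities, and levels are log2 of these intensities after quantile normalization, which gives all 12 arrays one distribution. A call in limma, a linear model fitted to all 54506 probes that were well above background on 3 or more arrays, needed a Benjamini-Hochberg adjusted p under 0.05 and a change of 1.5-fold or more. All 4 probes, and the second Gm12940 probe, were well above background on all 12 arrays. Zfp652os, Zfp652 and Zmym1 were dim, with processed signals of 14 to 102 over local backgrounds of 14 to 22. Gm12940 was brighter, with signals of 238 to 622.

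Of 12 marker genes of smooth muscle, endothelium, leukocytes and fibroblasts, only Tagln and Pdgfra had a probe that could be named, so the identity of the cells could not be checked on the arrays. Tagln, a contractile smooth muscle gene, gave a level of 5.23 to 5.54 in siNT-DMSO, 4.26 to 4.75 in siNT-POVPC, 4.35 to 4.77 in siOCT4-DMSO and 3.99 to 4.40 in siOCT4-POVPC. Pdgfra, a gene of fibroblasts and other mesenchymal cells, ran from 3.01 to 3.86, 2.69 to 2.77, 3.99 to 4.65 and 4.26 to 4.61 in the same order. In siOCT4-POVPC vs. siNT-POVPC, Pdgfra rose by 1.73 on the log2 scale (SE 0.25, limma adjusted p = 0.0012), although it was well above background on only 1 of the 3 siNT-POVPC arrays. Both markers were named because the study listed them as changed in siNT-POVPC vs. siNT-DMSO, which shares those arrays. Tagln differed by -0.36 (limma adjusted p = 0.26). The Tagln probe was dim as well, with processed signals of 10.6 to 42.4, and was well above background on 2 of the 3 siOCT4-POVPC arrays. In bulk RNA, fewer cells of a type and less RNA per cell cannot be told apart, and the part of either marker in the results below was not tested.

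Zfp652os, the lncRNA of the first pair, was lowest in siNT-DMSO and highest in siOCT4-POVPC. The siNT-DMSO arrays gave 4.76, 3.91 and 4.14, with a mean of 4.27 ± 0.44 (SD, n = 3). The siNT-POVPC arrays gave 6.15, 6.06 and 4.14, with a mean of 5.45 ± 1.14 (SD, n = 3). The third array of that group was thus at the level of the control arrays while the other two were about as high as the depleted cells. The siOCT4-DMSO arrays gave 6.41, 5.47 and 5.98, with a mean of 5.96 ± 0.47 (SD, n = 3). The siOCT4-POVPC arrays gave 6.65, 6.59 and 6.76, with a mean of 6.67 ± 0.09 (SD, n = 3). The siOCT4-POVPC arrays overlapped no other group, whereas siNT-POVPC overlapped both siNT-DMSO and siOCT4-DMSO.

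After quantile normalization, Zfp652 itself separated by siRNA and not by lipid. Its levels were 4.27, 4.52 and 4.70 in siNT-DMSO, a mean of 4.50 ± 0.22 (SD, n = 3), and 4.33, 4.26 and 4.66 in siNT-POVPC, a mean of 4.42 ± 0.22 (SD, n = 3). They were 5.34, 5.57 and 4.95 in siOCT4-DMSO, a mean of 5.29 ± 0.31 (SD, n = 3), and 5.44, 5.50 and 5.56 in siOCT4-POVPC, a mean of 5.50 ± 0.06 (SD, n = 3). The order of the means was siNT-POVPC, siNT-DMSO, siOCT4-DMSO, siOCT4-POVPC. The first 2 of these groups overlapped, as did the last 2, and every siOCT4 array lay above every siNT array. The DMSO arrays among them are those on which the probe was chosen, so their separation is a description. It did not hold with scaling to the 75th percentile in place of quantile normalization. The third siOCT4-DMSO array then gave 4.76, below siNT arrays at 4.85, 5.06 and 5.08.

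Gm12940, the lncRNA of the second pair, was highest in siNT-DMSO and lowest in siOCT4-POVPC. Its levels were 9.12, 9.71 and 9.59 in siNT-DMSO, a mean of 9.47 ± 0.31 (SD, n = 3), and 8.75 on each of the 3 siNT-POVPC arrays. They were 8.19, 8.30 and 8.01 in siOCT4-DMSO, a mean of 8.17 ± 0.15 (SD, n = 3), and 8.05, 8.20 and 7.95 in siOCT4-POVPC, a mean of 8.07 ± 0.13 (SD, n = 3). The siNT-DMSO arrays stood above the siNT-POVPC arrays, and these above all 6 siOCT4 arrays, which overlapped each other. Here too the probe was chosen on the DMSO arrays. The near-equal siNT-POVPC levels arose after normalization, since their processed signals were 583, 476 and 526.

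Zmym1 was lowest in siNT-DMSO, at 4.54, 4.78 and 3.84, a mean of 4.39 ± 0.49 (SD, n = 3). The siNT-POVPC arrays gave 4.63, 4.70 and 5.17, a mean of 4.83 ± 0.30 (SD, n = 3). The siOCT4-DMSO arrays gave 5.62, 5.74 and 5.02, a mean of 5.46 ± 0.39 (SD, n = 3), and the siOCT4-POVPC arrays 5.62, 5.33 and 5.71, a mean of 5.55 ± 0.20 (SD, n = 3). Each group overlapped the next in this order, and siOCT4-POVPC overlapped neither siNT group. With scaling to the 75th percentile siOCT4-POVPC did overlap siNT-POVPC, the second array of the former at 5.10 and the third of the latter at 5.48.

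**Figure D2:**
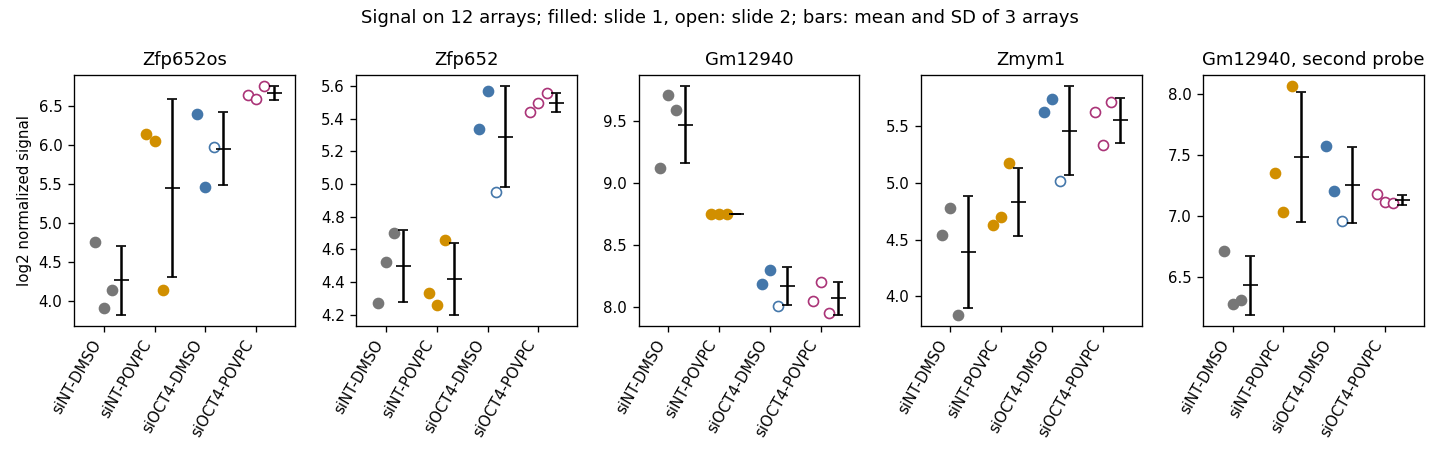
Log2 normalized signal of the 4 probes and of the second Gm12940 probe (y axis, a separate range per panel) on each of the 12 arrays, by group; filled points are slide 1, open points slide 2, and bars give the mean and SD of 3 arrays. Zfp652 and Zmym1 are highest in the siOCT4 groups, Gm12940 is lowest there, and the second Gm12940 probe is lowest in siNT-DMSO. Slides were inferred from scan time.

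The comparison siOCT4-POVPC vs. siNT-POVPC addressed OCT4 depletion in the presence of the oxidized lipid. Zfp652 rose by 1.08 on the log2 scale (SE 0.19, 95% interval 0.65 to 1.51, limma adjusted p = 0.0050), a change of 2.12-fold. Gm12940 fell by 0.68 (SE 0.18, interval -1.07 to -0.30, limma adjusted p = 0.028), a change of 1.61-fold. Zfp652os differed by 1.22 (SE 0.47, interval 0.19 to 2.25) and Zmym1 by 0.72 (SE 0.28, interval 0.12 to 1.33), and neither passed at limma adjusted p = 0.12 for both. So 2 of the 4 probes were called, against 11.3% of all probes in this comparison, and 1 member of each pair was among them. The 3 arrays of one group lay apart from those of the other for all 4 probes, as they did for 43.6% of all probes. The exact permutation test of each probe gave p = 0.1 (two-sided), the smallest that 3 arrays against 3 allow.

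Both calls carry limits. Slides were inferred from scan time alone. On that reading, all siNT-POVPC arrays were on 1 slide and all siOCT4-POVPC arrays on the other. Slide and group thus cannot be told apart within this comparison. A slide term can be fitted only through siOCT4-DMSO, the group with arrays on both. With the slide as a block, Zfp652 kept its call at 1.58 (limma adjusted p = 0.0065), whereas Gm12940 lost it at -0.45 (limma adjusted p = 0.34). Leaving out any 1 of the 6 arrays compared also ended the Gm12940 call, at -0.75 to -0.62, while it held without any of the other 6 arrays, and Zfp652 stayed called in all 12 such fits. Zfp652 lost its call with scaling to the 75th percentile, at 0.65 (limma adjusted p = 0.092), and with normexp background correction, where 0.44 was under 1.5-fold (limma adjusted p = 0.015). Zmym1, not called, ran from 0.26 with normexp and 0.34 with scaling to the 75th percentile to 1.38 with the slide as a block.

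The scaling matters here because the siNT-POVPC arrays were brighter as a whole. Their median processed signal over the tested probes was 116 to 142, against 89 to 98.6 in siOCT4-POVPC. Before any scaling, Zfp652 gave 29.8, 22.5 and 41.1 in siNT-POVPC and 33.4, 37.0 and 40.5 in siOCT4-POVPC, so the groups overlapped. Zmym1 overlapped as well, at 30.3 to 54.5 and 32.3 to 45.4, and so did Zfp652os, at 31.1 to 97.1 and 85.1 to 102. Gm12940 did not overlap, at 476 to 583 in siNT-POVPC and 238 to 279 in siOCT4-POVPC. Across all tested probes the median log2 change was -0.08 after quantile normalization and -0.27 after scaling to the 75th percentile.

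**Figure D3:**
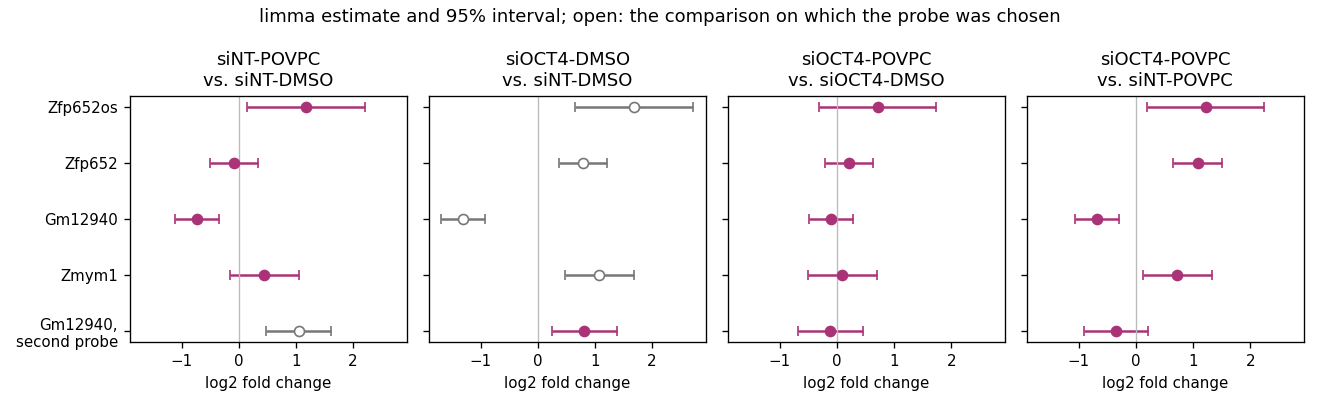
Log2 fold change (x axis) with its 95% interval from limma for the 4 probes and the second Gm12940 probe in the 4 comparisons; open points mark the comparison on which the study listed that probe. In siOCT4-POVPC vs. siNT-POVPC, Zfp652 is at 1.08 and Gm12940 at -0.68. The intervals of all 4 member probes exclude 0 there, which is an unadjusted p under 0.05 in limma, as 27.3% of all probes had. Zfp652os and Zmym1 did not pass after adjustment (limma adjusted p = 0.12 for both).

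In siOCT4-DMSO vs. siNT-DMSO, on which the probes were chosen, the log2 differences were 1.69 for Zfp652os, 0.79 for Zfp652, -1.31 for Gm12940 and 1.07 for Zmym1. By the same criteria 3 of the 4 reached a call, Zfp652os being the exception, against 6.6% of all probes, and the 3 arrays per group lay apart for all 4, as for 23.8% of all probes. Nothing is read from these counts. The directions were those of the POVPC-treated cells. Zfp652os, Gm12940 and Zmym1 had the smaller change in absolute value in POVPC-treated cells, and Zfp652 the larger one. The probes were chosen on the DMSO values, so no effect of POVPC is read from these sizes. The difference between the knockdown changes with and without POVPC, which is the same quantity as the difference of the POVPC changes, was -0.47 for Zfp652os, 0.29 for Zfp652, 0.62 for Gm12940 and -0.35 for Zmym1. None passed (limma adjusted p = 0.57 to 0.86), and 1 of the 4, Gm12940, had an unadjusted p under 0.05. The siNT-DMSO and siOCT4-DMSO arrays, on which the probes were chosen, enter this difference, so nothing is read from that p. No probe of the array passed this test, whereas 8.37% had an unadjusted p under 0.05. With the slide as a block 4.36% of all probes were called, and 0 of the 4.

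The effect of POVPC alone was measured in siNT-POVPC vs. siNT-DMSO, which shares its 3 control arrays with the comparison used for the choice. Zfp652os differed by 1.18 (interval 0.15 to 2.21, limma adjusted p = 0.29) and Zfp652 by -0.08 (interval -0.51 to 0.35, limma adjusted p = 0.87). Gm12940 differed by -0.72 (interval -1.11 to -0.34, limma adjusted p = 0.15) and Zmym1 by 0.45 (interval -0.16 to 1.05, limma adjusted p = 0.47). The count called was 0 of 4, against 0.00734% of all probes. Zfp652os and Gm12940 had an unadjusted p under 0.05 in limma, as had 14.6% of all probes. The methods' t-test, without adjustment, called Gm12940 and no other member, and 4.44% of all probes. Gm12940 was the member whose 3 arrays per group did not overlap, as was true of 17.5% of all probes. Without the third siNT-POVPC array Zfp652os stood at 1.84 (limma adjusted p = 0.031), and without the first siNT-DMSO array Gm12940 stood at -0.90 (limma adjusted p = 0.038), so single arrays decided both.

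In cells already depleted of OCT4, siOCT4-POVPC vs. siOCT4-DMSO, no member was called. The differences were 0.71 for Zfp652os (interval -0.32 to 1.74), 0.21 for Zfp652 (interval -0.22 to 0.64), -0.10 for Gm12940 (interval -0.49 to 0.28) and 0.09 for Zmym1 (interval -0.51 to 0.70). The limma adjusted p-values ran from 0.52 to 0.91, 0 of 4 were called against 0.00183% of all probes, and 0 had an unadjusted p under 0.05, against 13.5% of all probes. The siOCT4-DMSO arrays also served in the choice of the probes. Zfp652os was the member whose arrays did not overlap, against 25.2% of all probes. With the slide as a block, Zfp652 differed by 0.545 and was not called. Within the second slide, which held 1 siOCT4-DMSO array whose spread is assumed equal to that of the other group, Zfp652os differed by 0.68 and was called (limma adjusted p = 0.027), but that fit called 28.1% of all probes.

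The pairs were also compared array by array, as the lncRNA level minus the mRNA level on the same array, which cancels a shift common to both probes. Levels of different probes are not comparable, so only the change of this difference between groups is read. For Gm12940 minus Zmym1 the values were 4.58, 4.93 and 5.76 in siNT-DMSO and 4.12, 4.05 and 3.58 in siNT-POVPC. They were 2.58, 2.56 and 2.99 in siOCT4-DMSO and 2.43, 2.87 and 2.24 in siOCT4-POVPC. Every siOCT4 array was below every siNT array, and siNT-POVPC was below siNT-DMSO. The siNT-DMSO and siOCT4-DMSO arrays are those on which both probes were chosen, so their part in this separation is a description. The change in siOCT4-POVPC vs. siNT-POVPC was -1.40 (3.92 ± 0.30 to 2.52 ± 0.32, SD, n = 3 arrays each, exact permutation p = 0.1, the smallest possible). It was -1.03 with scaling to the 75th percentile and -0.85 with normexp, with no overlap between the groups under either. How many other probe pairs lay apart was not counted, while 43.6% of single probes did in this comparison, where group and slide coincide. In siNT-POVPC vs. siNT-DMSO the change was -1.17 with no overlap (exact permutation p = 0.1), and in siOCT4-POVPC vs. siOCT4-DMSO it was -0.20 with overlap (exact permutation p = 0.4).

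For Zfp652os minus Zfp652 the values were 0.49, -0.61 and -0.57 in siNT-DMSO and 1.82, 1.80 and -0.53 in siNT-POVPC. They were 1.07, -0.10 and 1.03 in siOCT4-DMSO and 1.21, 1.09 and 1.20 in siOCT4-POVPC. The change in siOCT4-POVPC vs. siNT-POVPC was 0.14 (1.03 ± 1.35 to 1.17 ± 0.07, SD, n = 3 arrays each, exact permutation p = 1). This value rests on the third siNT-POVPC array: without it the change was -0.64. In siOCT4-POVPC vs. siOCT4-DMSO the change was 0.50 with no overlap (exact permutation p = 0.1), and in siNT-POVPC vs. siNT-DMSO it was 1.26 with overlap (exact permutation p = 0.2). The third siNT-POVPC array gave the lowest Zfp652os level and the highest Zfp652 level of its group, and also the highest Zmym1 level.

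**Figure D4:**
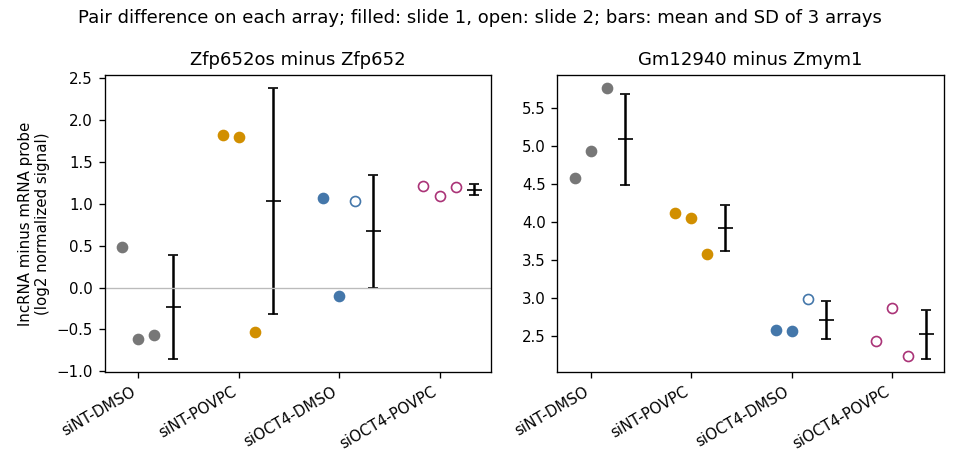
Difference between the lncRNA probe and the mRNA probe of each pair (log2 normalized signal, y axis) on each of the 12 arrays, by group; filled points are slide 1, open points slide 2, and bars give the mean and SD of 3 arrays. Gm12940 minus Zmym1 lies between 3.58 and 5.76 in the siNT arrays and between 2.24 and 2.99 in the siOCT4 arrays, whereas Zfp652os minus Zfp652 spreads from -0.53 to 1.82 within siNT-POVPC alone. The DMSO arrays are those on which the probes were chosen. Slides were inferred from scan time.

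After subtraction of the group mean from each array, the deviations of Zfp652os and Zfp652 had Pearson's r = -0.64 and Spearman's rho = -0.69 over 12 arrays, and their signs were opposite on 9 of them. Without the 2 arrays in which Zfp652os deviated most, both of them siNT-POVPC, r was -0.57 over 10 arrays. Of all tested probes, 92.2% had an r with Zfp652 at or above that of Zfp652os. Gm12940 and Zmym1 had r = 0.06 over 12 arrays, and 48.1% of all probes had an r with Zmym1 at or above it. These correlations describe 12 arrays that share group, slide and normalization, and carry no p.

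The second Gm12940 probe, which reads another transcript of that name, gave a different account. The study listed it as changed in siNT-POVPC vs. siNT-DMSO, so its values there are a description. Its levels were 6.71, 6.28 and 6.31 in siNT-DMSO, 7.35, 7.03 and 8.06 in siNT-POVPC, 7.57, 7.20 and 6.96 in siOCT4-DMSO and 7.18, 7.11 and 7.10 in siOCT4-POVPC. The siNT-DMSO arrays were below all others, which is the reverse of the first probe. The differences were 1.05 in siNT-POVPC vs. siNT-DMSO and 0.81 in siOCT4-DMSO vs. siNT-DMSO (limma adjusted p = 0.085), where the first probe had -0.72 and -1.31, and both comparisons use the same siNT-DMSO arrays. In siOCT4-POVPC vs. siNT-POVPC, which shares the siNT-POVPC arrays with the comparison of its choice, the second probe had -0.35 (SE 0.26, limma adjusted p = 0.42) and was not called. First probe minus second probe changed there by -0.33, with overlap (exact permutation p = 0.4). The 2 probes thus differed in sign in both comparisons against siNT-DMSO and had the same sign in siOCT4-POVPC vs. siNT-POVPC.

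The study listed 66 antisense lncRNA/mRNA pairs in siOCT4-DMSO vs. siNT-DMSO, all of which could be matched to probes, so their directions in that comparison are a description. They held 65 lncRNA and 56 mRNA transcripts. In siOCT4-POVPC vs. siNT-POVPC, partners had the same sign in 33 pairs, like Zfp652os and Zfp652, and opposite signs in 33, like Gm12940 and Zmym1. Both members kept their sign between the comparisons in 57 of the 66 pairs, both pairs described here included. Among 10 pairs whose 5′ ends overlap, 3 had the same sign in POVPC-treated cells. Among 11 pairs whose 3′ ends overlap, 8 did. Zfp652os/Zfp652 was thus one of the 3 same-sign pairs in the first set and Gm12940/Zmym1 one of the 3 opposite-sign pairs in the second. Some transcripts belong to more than 1 pair, and no test was made of the arrangement.

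**Figure D5:**
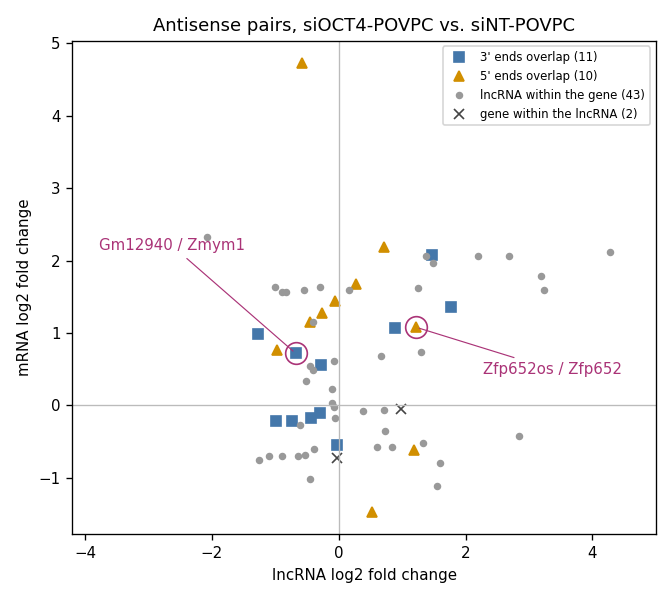
Log2 fold change of the lncRNA (x axis) and of the mRNA (y axis) in siOCT4-POVPC vs. siNT-POVPC for the 66 antisense pairs, marked by how the transcripts overlap, with both pairs described here circled. Zfp652os/Zfp652 lies where both are higher (1.22 and 1.08) and Gm12940/Zmym1 where the lncRNA is lower and the mRNA higher (-0.68 and 0.72), and 33 pairs fall on each side.

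Other zinc finger genes differed in both directions. Probes of 22 such genes could be named, most of them because the study listed them as changed in siNT-POVPC vs. siNT-DMSO, so the list was selected on arrays that the comparison below shares. In siOCT4-POVPC vs. siNT-POVPC, 10 of the 22 were above 0, with a median of -0.03 beside -0.08 over all probes. Of the 22, 1 was called higher and 1 lower, against 11.3% of all probes called. Zfp36l1, whose CCCH fingers bind AU-rich mRNA, was called higher, at 0.68 (SE 0.19, limma adjusted p = 0.043), and Zfp945 was called lower, at -0.74 (SE 0.18, limma adjusted p = 0.025). Zbtb22, at -0.841 (limma adjusted p = 0.15), and Zfp983, at -0.755 (limma adjusted p = 0.068), differed by more and were not called. The Zfp36l1 probe was named because the study listed it in siOCT4-DMSO vs. siNT-DMSO. Of 12 partner genes, the ETO-family corepressors, the other MYM-type genes and the LSD1-CoREST complex, only Zmym5 had a named probe, with 0.85 (SE 0.27, limma adjusted p = 0.068). None of the genes beside either pair had a named probe other than the members, so Sfpq, Zmym4 and Zmym6 were not analysed here.

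Among 1261 other named probes, each listed by the study as changed in some comparison, those most like each member over the 12 arrays were sought by Pearson's r, as a description. For Zfp652os they were Epha7 (r = 0.938), a lncRNA probe listed under Ctsa (r = 0.930) and Stk38l (r = 0.930). For Zfp652 they were Dhx58 (r = 0.980), the lncRNAs Gm16150 (r = 0.963) and uc.7 (r = 0.951). For Gm12940 they were Dnah9 (r = 0.973), Fpr3 (r = 0.969) and Pth2r (r = 0.963), and no tested probe, named or not, was more like it than Dnah9. For Zmym1 they were the lncRNA 4732471J01Rik (r = 0.976), Mast1 (r = 0.970) and Dclre1b (r = 0.965). Among the tested probes, 24 were more like Zfp652os than Epha7, 9 more like Zfp652 than Dhx58 and 35 more like Zmym1 than 4732471J01Rik. Neither lncRNA was among the 3 named probes nearest to its partner.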

How the data were processed

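RNA of 12 MASMC samples was hybridised to 1-colour Agilent arrays (Arraystar mouse lncRNA), read with Agilent Feature Extraction 11.0.1.1 per the file headers and the submitters' processing notes. The deposited intensity values were background-subtracted by that software, and the authors' log2 table holds the same arrays after a floor and quantile normalization (r = 0.9972 to 1 with log2 processed signal, median 6.37 in every column). Flagged outlier spots were left out, processed signals were floored at 5, quantile-normalized and fitted with limma 3.58.1 (R 4.3.3), all 4 groups together, over 54506 probes well above background on 3 or more arrays. Quantile normalization assumes that arrays share one distribution, and so removes a general shift. Arrays had 49015 to 55326 probes well above background and none saturated; spot and array number limit the precision.

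The deposited files name no genes: 1154 probes were named by probe identifier and 108, the 4 members among them, by matching the study's listed fold changes and p-values, within a relative tolerance of 0.0005, to the authors' log2 values. Those columns were used for naming only, and the tables were held in part, so that most names come from siNT-POVPC vs. siNT-DMSO. Slides were told apart by scan time. The members and lists were chosen with earlier results of these data known. Named genes were the members, other probes of the same names, neighbours, the 3 named probes most like each member, up to 4 per list by size of change, and the zinc finger genes called. Simulated data with a log2 change of 2 in 200 of 54506 probes for siOCT4-POVPC vs. siNT-POVPC were put through the fit, which recovered 154 of them with 7 false calls. That change is larger than those of the 4 probes in this comparison, and recovery of changes of their size was not tested. Alternatives were other scalings, floors, filters, blocks, the methods' t-test and leaving out each array.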

Additional observations from a re-analysis of the deposited data

How the results depend on the processing

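In siOCT4-POVPC vs. siNT-POVPC, all 4 probes kept their direction under the 13 alternatives other than leaving out an array and in the 12 fits without 1 array. Zfp652 was called in 11 of 13 (the exceptions 0.65 with scaling to the 75th percentile and 0.44 with normexp) and in 12 of 12 (1.00 to 1.20). Gm12940 was called in 11 of 13 (the exceptions -0.45 with slide as a block and -0.58 with slide as a random block) and in 6 of 12 (-0.75 to -0.62). Zfp652os was called in none of either (without 1 array, 0.56 to 1.57). Zmym1, at 0.72 (0.26 with normexp to 1.38 with slide as a block), was called in 2 of 13, the fit of only the 2 groups compared (limma adjusted p = 0.043) and the methods' t-test before adjustment, and in none without 1 array (0.62 to 0.89).

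Gm12940 minus Zmym1 changed by -1.03 with scaling to the 75th percentile and -0.85 with normexp, and by -1.40 in the fit reported. Zfp652os minus Zfp652 ran from -0.64 (without the third siNT-POVPC array) to 0.53 without 1 array. The count called of 4 in siOCT4-DMSO vs. siNT-DMSO went from 3 (6.6% of all probes) to 1 with normexp (4.69%) and with only the 2 groups compared (1.43%), to 0 with the methods' t-test after adjustment (0.132%) and to 4 with it before adjustment (9.27%) and over probes well above background on all 12 arrays (7.51%). It ran from 1 to 4 without 1 array (3.19% to 11%). In siNT-POVPC vs. siNT-DMSO it went from 0 to 1 with the methods' t-test before adjustment (4.44%) and was 0 to 1 without 1 array (0 to 0.925%). In siOCT4-POVPC vs. siOCT4-DMSO it was 1 within slide 2, where 28.1% of all probes were called.

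These uncalled values changed sign: in siOCT4-POVPC vs. siOCT4-DMSO, Zmym1 to -0.031 with scaling to the 75th percentile and to -0.13 without the third siOCT4-DMSO array (up to 0.24 without another array), and Gm12940 to 0.056 with slide as a block and within slide 2; in siNT-POVPC vs. siNT-DMSO, Zfp652 to 0.021 without the third siNT-DMSO array (down to -0.20 without another); and in the difference of the POVPC changes, Zfp652os to 0.004 with normexp and Zmym1 to 0.088 with slide as a block. The cause was not tested.

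Replicate numbers are shared by the groups, and the labels do not say whether same-numbered arrays belong together. Their deviations from the group means had r of -0.20 to 0.36, the highest for siNT-DMSO and siOCT4-DMSO replicate 2. With 3 arrays per group these values cannot decide whether the arrays were paired. With the replicate block, 1 of 4 was called in siOCT4-DMSO vs. siNT-DMSO in place of 3 (5.52% of all probes), and Zfp652 (limma adjusted p = 0.013) and Gm12940 (limma adjusted p = 0.038) stayed called in siOCT4-POVPC vs. siNT-POVPC. The pair differences under other scalings in the remaining comparisons, the second probe's settings and the correlation without 2 arrays were added after seeing the data. Probes as dim as Zfp652os, Zfp652 and Zmym1 limit what these arrays can show.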
